A study of Mus musculus with 26 samples.

Results

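Wild-type mouse embryonic stem cells kept for 2 days in serum medium with the MEK inhibitor PD0325901 were compared with the same kind of cells in 2i medium. The comparison rests on 4 of the study's 26 arrays, the 2 whose titles give Prdm14(+/+) with 2i and the 2 whose titles give Prdm14(+/+) with serum and MEK inhibitor at day 2. The study measured mRNA on Affymetrix arrays in stem cells that carry or lack Prdm14, across several media, in 13 groups of 2 arrays. The cells were male and of the C57BL/6 strain, carried unmodified Prdm14, and grew on feeder cells, mouse embryonic fibroblasts (MEF). The 2i medium was N2B27 with 0.4 µM PD0325901, 3 µM CHIR99021 (an inhibitor of GSK3) and 1000 units per ml of the cytokine LIF. The serum medium, written serum+PD from here on, was GMEM with 20% fetal bovine serum, the same concentration of LIF and the same 0.4 µM PD0325901. Both media thus held LIF and the MEK inhibitor at 1 dose, and they differed in CHIR99021, serum and base medium. The labels give no day for the 2i arrays, so time in the medium may differ as well. The parts of all these in any difference below cannot be told apart. Beside them stand 2 wild-type arrays from 2 days in that serum medium with LIF but without the inhibitor (serum alone), and 2 pairs labelled Prdm14(-/-), of the same strain and sex and on the same feeders, 1 pair in 2i and 1 in serum+PD. The labels call the Prdm14(-/-) cells ESC-like cells and do not say whether they are 1 clone. The labels do not say that the 2 arrays of a group came from separate cultures, and p-values hence reflect nothing beyond the spread of these arrays, which may be technical.

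Mouse embryonic stem cells hold a naive state in which Pou5f1 and Sox2 act together with Nanog, Esrrb and Klf factors. FGF4 signalling through MEK and ERK moves them towards a formative state marked by Otx2, Fgf5, Pou3f1 and the de novo DNA methyltransferases, and MEK inhibitors block that route. GSK3 marks beta-catenin for destruction, so a GSK3 inhibitor stabilises beta-catenin, relieves repression by Tcf7l1 and switches on direct Wnt targets such as Axin2 and Sp5. Serum brings lipoproteins, BMP ligands and other growth factors, whereas N2B27 is a defined medium without serum lipids.

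The 10 markers of embryonic stem cells were all measured, with a mean log2 signal of 11.69 and 11.86 on the 2i arrays and 11.80 and 11.92 on the serum+PD arrays. Markers of fibroblasts were present as well: over 26 of 27 listed genes the mean was 8.87 and 8.84 in 2i against 7.62 and 7.68 in serum+PD, their summed level was 230.7 and 229.8 against 198.0 and 199.7, and none was at 0, while 2 were under 5 on all 4 arrays. Prdm14 itself read 8.95 and 9.40 in 2i and 9.04 and 9.48 in serum+PD, 0.08 apart (95% interval -0.77 to 0.94), which did not pass the test. On the arrays labelled knockout the same Prdm14 probe set read higher (11.33 and 11.24 in 2i, 10.60 and 10.87 in serum+PD), which goes against the label, and the sources used here do not place the probe set inside or outside the deleted part. The spiked bacterial lys control read 13.4 to 13.55 on 12 arrays, among them all 4 compared here and the knockout-labelled pairs, and 6.86 to 7.44 on the other 14, among them every array in serum alone. By this control, comparisons of serum+PD with 2i lie within 1 set, called a labelling set here although the labels name none. Any value of serum alone beside them comes from the other set. Other spiked controls read lower on both 2i arrays than on both serum+PD arrays. Phe read 9.89 and 10.28 against 10.40 and 10.44, and dap 11.57 and 11.85 against 11.96 and 12.01. Thr read 8.08 and 8.38 against 8.39 and 8.43. The bioB and cre controls were not lower in 2i. The part of this offset in the differences below was not tested.

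Of 18193 genes, 2277 (12.5%) passed an adjusted p of 0.05 in limma with Benjamini-Hochberg adjustment. In serum+PD 992 genes (5.45%) rose and 1285 (7.06%) fell, and the median difference over all genes was -0.02 on the log2 scale. The balance turned under quantile normalization, with 1210 higher and 1091 lower. Changes of at least 2-fold numbered 196 upward (1.08%) and 306 downward (1.68%), and the arrays of both media did not overlap for 8712 genes (47.9%). The plot of gene groups shows how unevenly the calls were spread: all 20 measured genes of cholesterol synthesis fell, 8 of 16 formative genes rose, and 3 of 22 naive genes were called. The count was 1446 without the first serum+PD array and 273 when only the 4 compared arrays were fitted.

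**Figure D1:**
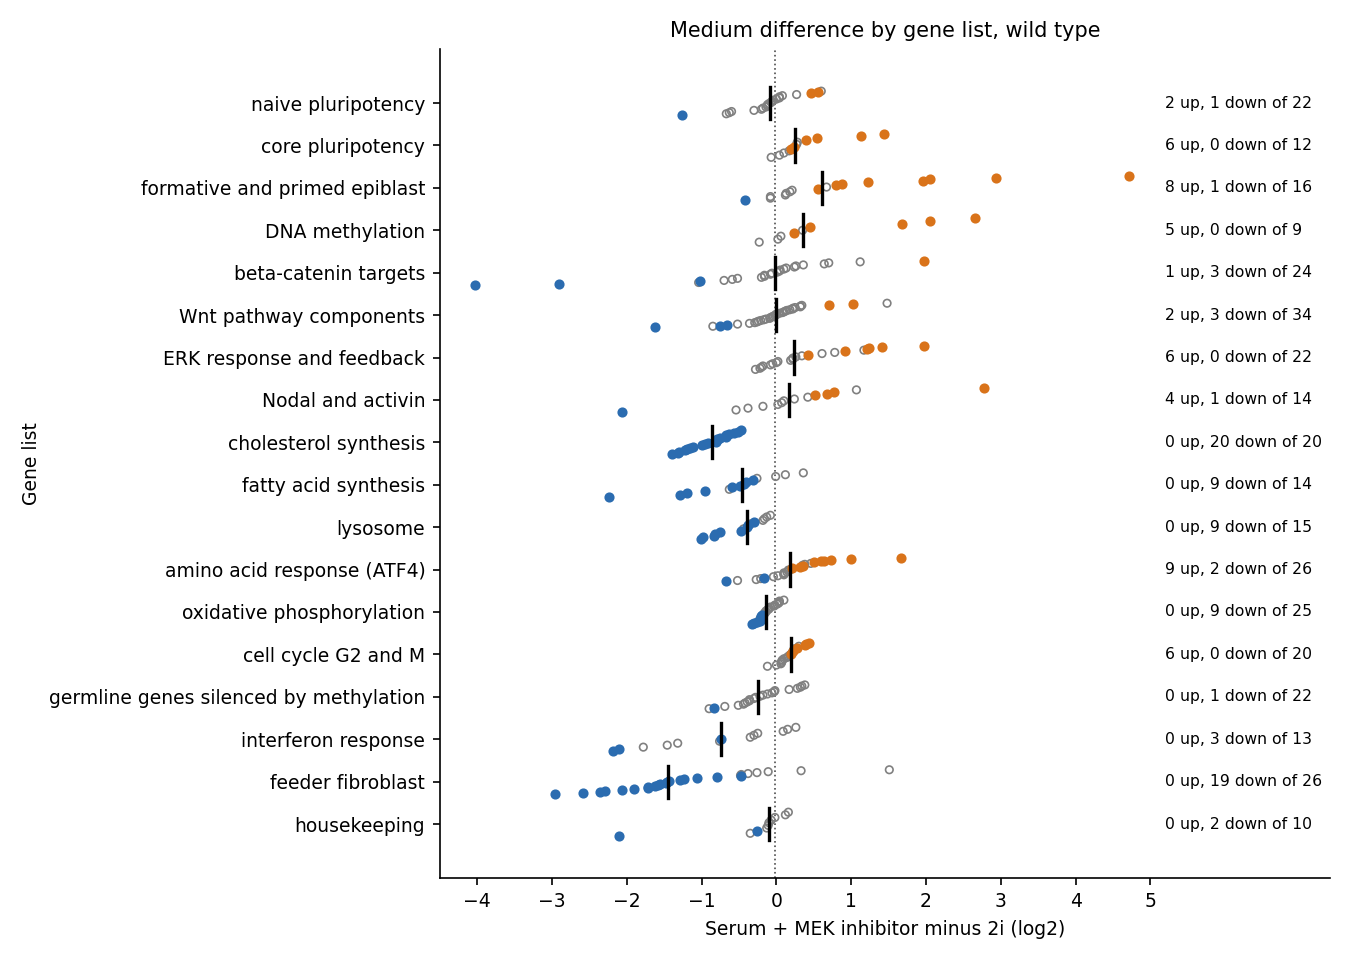
Difference of serum+PD minus 2i (log2, horizontal axis) for every measured member of 18 gene groups (rows) in wild-type cells; orange points were called higher, blue points called lower, open points not called, black bars are group medians and the dotted line is the median of all genes. The cholesterol group lies wholly below 0, from -1.40 to -0.48, and the naive group centres at -0.08.

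Of 22 naive genes 2 were called higher, 1 lower and 19 did not pass, a share near the 12.5% called over all genes, with a median of -0.08. Nanog, the homeodomain factor at the centre of the naive network, read 12.70 and 12.65 in 2i and 12.63 and 12.71 in serum+PD. The arrays of both media overlapped, and the 95% interval of the difference, -0.39 to 0.38, is the range that these arrays allow. Esrrb, an orphan nuclear receptor of the same network, read 11.09 and 11.22 against 11.09 and 11.14 (interval -0.60 to 0.52). Klf4 read 12.46 and 12.70 against 12.24 and 12.67 (interval -0.89 to 0.64).

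Other naive factors lay lower in serum+PD with no overlap between the arrays but did not pass. Tfcp2l1, a LIF target, read 11.69 and 12.03 against 11.04 and 11.42 (difference -0.63, adjusted p = 0.192 in limma). Tbx3 read 10.53 and 10.97 against 9.73 and 10.43 (difference -0.67, adjusted p = 0.24). With the replicate number as a block both passed (adjusted p = 0.00623 for Tfcp2l1 and 0.00278 for Tbx3). Zscan10, a zinc-finger partner of Pou5f1 and Sox2, rose from 8.27 and 8.37 to 8.79 and 8.96, by 0.56 (SE 0.11, adjusted p = 0.00274). The call of Dppa4, also higher (0.46), was lost without the second 2i array (adjusted p = 0.381) or the first serum+PD array (0.328), and that of Spic (-1.26) without any one of the 4 arrays (0.0852 to 0.227).

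In serum alone, which shares the 2i arrays as its baseline, 15 of the same 22 naive genes were called lower and 2 higher, with a median of -0.98. Over all genes that comparison called 19.4% lower and 15.2% higher, and the serum-alone arrays belong to the other labelling set. Nanog read 10.73 and 11.38 there, Esrrb 9.37 and 10.11, Klf4 10.44 and 11.71, and Tfcp2l1 8.31 and 9.28. All of these lay below both the 2i and the serum+PD arrays.

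**Figure D2:**
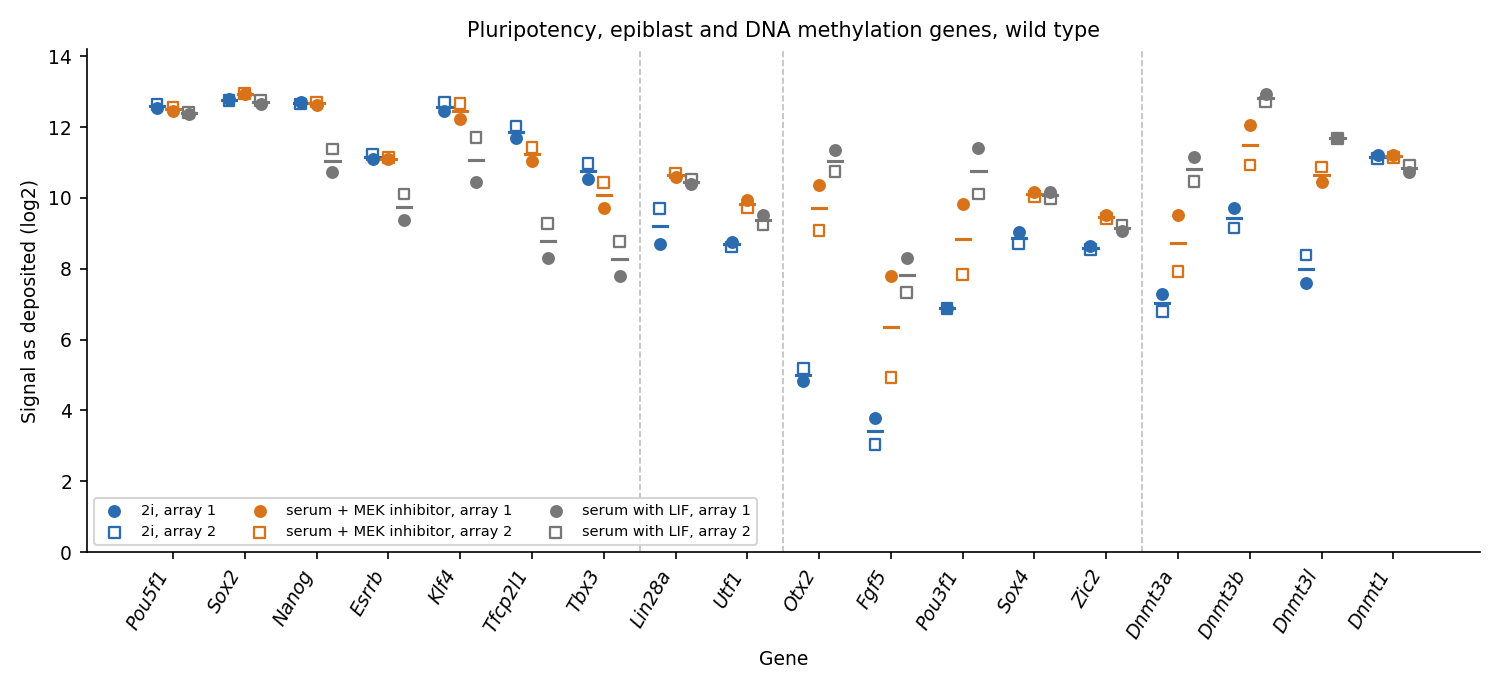
Log2 signal (vertical axis) on each array of wild-type cells in 2i, serum+PD and serum alone for naive and core, Lin28a and Utf1, formative and DNA methylation genes; the filled circle is array 1, the open square array 2 and the bar their mean. Nanog, Esrrb and Klf4 sit at like heights in 2i and serum+PD and lower in serum alone, while Otx2 climbs from 4.83 and 5.18 to 10.37 and 9.08.

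Among the core pluripotency genes 6 of 12 rose and none fell, with a median of 0.25, against 5.45% of all genes. Markers of fibroblasts went the other way (19 of 26 called lower, against 7.06% of all genes), and their part in these rises was not tested. Pou5f1 read 12.53 and 12.64 in 2i and 12.46 and 12.57 in serum+PD, and Sox2 12.80 and 12.75 against 12.94 and 12.95. Neither passed. Lin28a, which binds the let-7 precursor and blocks its maturation, rose from 8.71 and 9.70 to 10.58 and 10.71, by 1.44 (SE 0.25, adjusted p = 0.000762). Utf1, a chromatin-bound factor of pluripotent cells, rose from 8.77 and 8.62 to 9.93 and 9.72, by 1.13 (SE 0.11, adjusted p = 1.67e-06), although a further Utf1 probe set moved the other way (-0.59). L1td1, an RNA-binding protein derived from a transposon, rose by 0.54 (adjusted p = 0.000622). Sall4 rose by 0.39 with a call that was lost without the first 2i array (adjusted p = 0.0536). Trim28 (0.23) lost its call without the second 2i array (0.0803) or the first serum+PD array (0.0746), and Rif1 (0.20) without any one array (0.0524 to 0.2).

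Formative genes were higher in serum+PD although the MEK inhibitor was present. Of 16 measured, 8 rose, against 5.45% of all genes, 1 (Tead2) fell and 7 did not pass, with a median of 0.61. Otx2, the homeobox factor that directs the formative state, read 4.83 and 5.18 in 2i and 10.37 and 9.08 in serum+PD. This is the largest difference of any gene among those called with no overlap, 4.72 (SE 0.75, adjusted p = 0.000376), a 26.4-fold change. Sox4 rose from 9.04 and 8.72 to 10.16 and 10.05, by 1.23 (adjusted p = 0.000169), with 1 further probe set the other way (-0.43). Zic2, a zinc-finger factor of the epiblast, rose from 8.64 and 8.54 to 9.52 and 9.42, by 0.88 (adjusted p = 0.00202).

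The 2 serum+PD arrays differed from each other in this group. Fgf5, a secreted ligand of the epiblast, read 3.80 and 3.04 in 2i and 7.79 and 4.94 in serum+PD. Pou3f1, a POU factor, read 6.89 and 6.88 against 9.84 and 7.84. The first serum+PD array stood above the second for 13 of the 16 formative genes, by a median of 0.48, and the first 2i array above the second for 12 of 16, by 0.16; over all genes the first array was above the second for 9083 and 9333 of 18193. The call of Fgf5 (2.94) was lost without the first serum+PD array (adjusted p = 0.154) or the second 2i array (0.0655). Without that serum+PD array the calls of Pou3f1 (1.96, then 0.114), Foxp1 (0.80, then 0.111, with 1 further probe set at -1.01) and Zic5 (0.55, then 0.399) were lost too, and Zic5's also without the second 2i array (0.282). Tead2 (-0.42) lost its call without the second serum+PD array (0.0604).

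In serum alone Otx2 read 11.35 and 10.75, Fgf5 8.30 and 7.34, and Pou3f1 11.41 and 10.11. Both serum arrays were above both serum+PD arrays for Otx2 and Pou3f1, and serum alone and serum+PD overlapped for Fgf5. Etv4, an ETS factor of this list that responds to FGF, read 4.48 and 4.81 in 2i, 4.37 and 4.77 in serum+PD and 6.04 and 7.14 in serum alone.

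The de novo DNA methyltransferases were higher in serum+PD, and the maintenance enzyme did not pass. Of 9 genes for DNA methylation 5 rose, against 5.45% of all genes, and none fell, with a median of 0.35. Dnmt3l, the cofactor without catalytic activity, rose from 7.60 and 8.39 to 10.45 and 10.87, by 2.66 (SE 0.17, adjusted p = 2.47e-08), a 6.34-fold change. Dnmt3b rose from 9.71 and 9.15 to 12.06 and 10.93, by 2.06 (SE 0.25, adjusted p = 2.7e-05). Dnmt3a read 7.30 and 6.79 against 9.51 and 7.93, again with the first serum+PD array higher.

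The Dnmt3a difference, 1.68 (adjusted p = 0.00435), lost its call without the second 2i array (0.0541) or the first serum+PD array (0.0998), and 1 further Dnmt3a probe set read -0.13. Dnmt1, which copies methylation to the new strand, read 11.22 and 11.11 against 11.22 and 11.14 (interval -0.15 to 0.18). Its partner Uhrf1 read 11.56 and 11.63 against 11.34 and 11.39 and did not pass (-0.23, adjusted p = 0.153). The number of this group called higher was 3 without either of these arrays and 6 without the first 2i array. Hells, a chromatin remodeller needed for methylation of repeats, rose by 0.45 (adjusted p = 0.000389). Tet1, which oxidises methylcytosine, rose from 11.43 and 11.53 to 11.85 and 11.87, by 0.38 (adjusted p = 0.00134). Of 22 germline genes known to be silenced by promoter methylation 1, Dazl, was called lower (-0.84), against 7.06% of all genes. That call hung on single arrays: the difference was -0.40 without the first 2i array and -0.49 without the second serum+PD array. The median of the 22 was -0.25.

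Direct beta-catenin targets did not move as a block: 3 of 24 fell, 1 rose and 20 did not pass, with a median of -0.03. Over all genes 7.06% fell and 5.45% rose. The 3 that fell did so by large amounts. Cdx1, a caudal homeobox gene with Wnt-responsive elements, read 6.26 and 6.92 in 2i and 2.41 and 2.71 in serum+PD, a difference of -4.03 (SE 0.45, adjusted p = 1.19e-05). Sp5, a zinc-finger repressor induced by Wnt, read 7.69 and 8.20 against 5.56 and 4.51, a difference of -2.91 (SE 0.32, adjusted p = 9.1e-06). Axin2, the negative feedback scaffold of the pathway, read 7.77 and 8.27 against 7.04 and 6.96, a difference of -1.02 (SE 0.19, adjusted p = 0.00133). For each of them both 2i arrays were above both serum+PD arrays, while 47.9% of all genes had no overlap in either direction.

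Lgr5, a receptor for R-spondin, read 4.03 and 5.01 against 3.38 and 3.57 and narrowly missed the threshold (-1.04, adjusted p = 0.0663); it passed without the first 2i array (0.0246). Lef1, a transcription factor of the pathway (0.13), and Nkd1, a feedback inhibitor (0.04), did not pass. Myc, listed both here and among the ERK genes, went the other way, from 4.47 and 4.97 to 6.69 and 6.71, by 1.98 (SE 0.21, adjusted p = 6.95e-06). In serum alone Cdx1 read 2.85 and 3.88, Sp5 5.84 and 5.43, and Axin2 7.31 and 6.87.

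The Sp5 promoter is printed because it holds the core letters of a TCF/LEF site. Sequences run 5′ to 3′ along the gene, are the 250 bases before the RefSeq start in GRCm38.p6, and carry ATCAAAG or its reverse complement CTTTGAT in capitals; the window is chr2:70474673-70474922 on the plus strand.
Sp5: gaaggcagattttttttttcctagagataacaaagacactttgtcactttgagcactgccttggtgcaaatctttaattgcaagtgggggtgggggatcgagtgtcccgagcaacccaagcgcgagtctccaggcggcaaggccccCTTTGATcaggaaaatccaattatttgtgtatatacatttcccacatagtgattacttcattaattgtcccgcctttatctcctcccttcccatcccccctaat
This motif stood, on either strand, in 3.21% of 32851 such windows and in 3 of 21 windows of beta-catenin targets (14.3%). By gene it stood in 3.72% of 27025 genes and in 3 of the 14 targets with an entry (Sp5, Tnfrsf19 and Msgn1). The Axin2 window held no match, and Cdx1 had no entry. Tnfrsf19 (-0.52) and Msgn1 (-0.08) did not pass. A match of letters is a description and not a binding site.

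Among 34 further components of the Wnt pathway 2 rose and 3 fell, a share near the 12.5% of all genes, with a median of -0.01. Tcf7l1, the repressor relieved by beta-catenin, rose from 9.99 and 10.06 to 10.70 and 10.75, by 0.70 (SE 0.12, adjusted p = 0.000528). Fzd7, a Wnt receptor, rose from 9.09 and 9.16 to 10.26 and 10.04, by 1.02 (adjusted p = 0.000136). Wls, which escorts Wnt ligands to the cell surface, fell by 0.76 on the log2 scale (adjusted p = 0.00117), and the ligand gene Wnt9a fell by 1.63 (adjusted p = 3.25e-05). The call of Fzd1 (-0.66) was lost without the first 2i array (0.18), the first serum+PD array (0.07) or the second (0.131).

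Genes that respond to ERK were partly higher in serum+PD: 6 of 22 rose, against 5.45% of all genes, none fell, and the median was 0.24. Dusp6, a phosphatase that dephosphorylates ERK and is itself an ERK target, read 8.03 and 8.09 in 2i and 9.55 and 9.39 in serum+PD. Its arrays did not overlap, and it rose by 1.41 (SE 0.11, adjusted p = 3.51e-07). Myc rose as given above. Egr1, an immediate early gene, read 8.66 and 9.10 against 10.28 and 9.95.

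The calls of the other 4 depended on single arrays in the fit without a block. Egr1 (1.24) was lost without the first 2i array (adjusted p = 0.106) or the first serum+PD array (0.0921). Spry4 (1.21), a feedback inhibitor, was lost without the first 2i array (0.282), the first serum+PD array (0.0512) or the second (0.161). Spry2 (0.42) was lost without the first 2i array (0.146) or the second serum+PD array (0.138), and Fosb (0.92) without the second 2i array (0.268) or either serum+PD array (0.099 and 0.1). In serum alone, 13 of the 22 were called higher and 1 lower, against 15.2% and 19.4% of all genes, with a median of 0.68. Dusp6 read 10.25 and 10.48 there, Spry4 8.60 and 9.47, and Egr1 11.18 and 11.33, all above both serum+PD arrays.

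**Figure D3:**
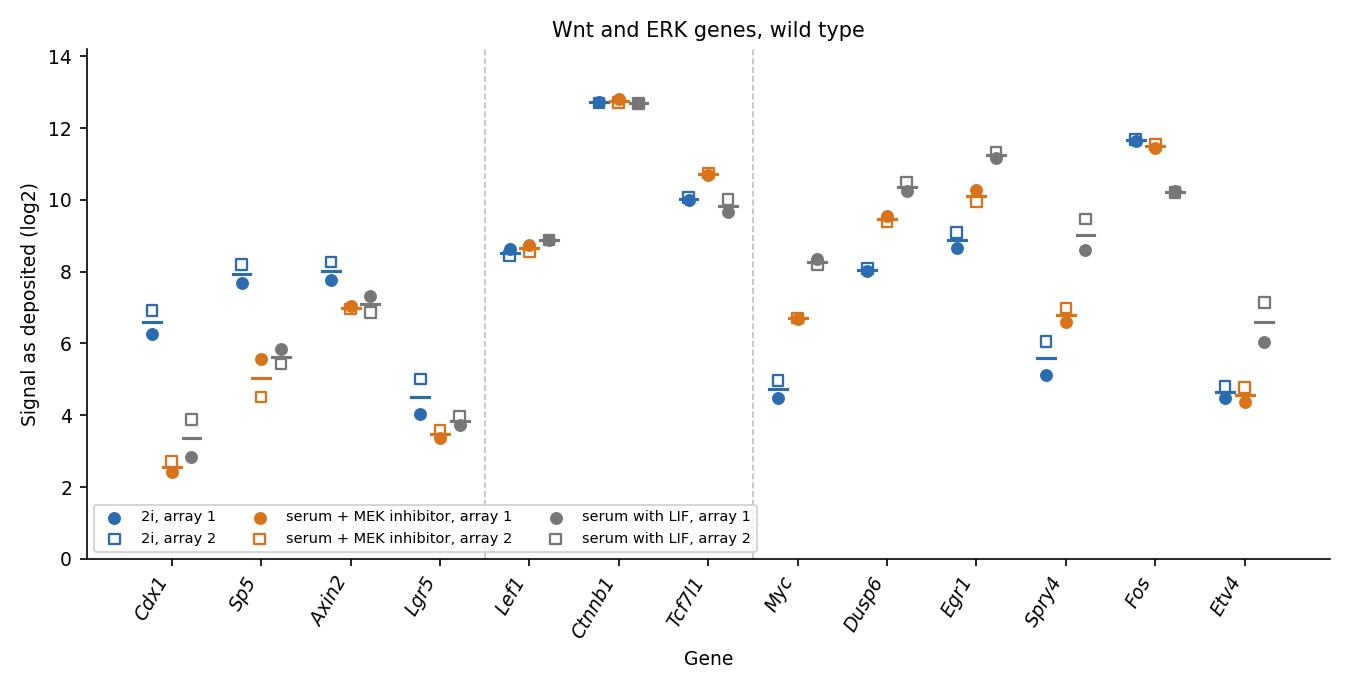
Log2 signal (vertical axis) on each array of wild-type cells in 2i, serum+PD and serum alone for Wnt targets, Wnt components and ERK response genes; the filled circle is array 1, the open square array 2 and the bar their mean. Cdx1, Sp5 and Axin2 are lower in both serum media than in 2i, while Dusp6 and Myc step up from 2i through serum+PD to serum alone.

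Of 14 genes of Nodal and activin signalling 4 rose and 1 fell, against 5.45% and 7.06% of all genes. Lefty1, a secreted Nodal antagonist and Nodal target, rose from 9.35 and 8.91 to 12.10 and 11.71, by 2.78 (SE 0.25, adjusted p = 1.12e-06), a 6.84-fold change. Its relative Lefty2 was higher on both serum+PD arrays than on both 2i arrays and did not pass (1.07, adjusted p = 0.0782). Foxh1, the DNA-binding partner of SMADs in this pathway, rose by 0.77 (adjusted p = 8.43e-05), and the receptor Acvr2b rose by 0.52 (adjusted p = 0.00163) with 1 further probe set at -0.05. Inhbb, a subunit of activin B, fell from 8.04 and 8.27 to 5.91 and 6.26, a difference of -2.07 (adjusted p = 0.00117). Nodal (0.07) and its co-receptor Tdgf1 (0.10) did not pass.

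Of 17 BMP and Id genes 2 were called higher, Id1 and Smad7, against 5.45% of all genes, and the median was -0.06. Id1, a BMP target that inhibits basic helix-loop-helix factors, read 6.46 and 6.88 in 2i, 7.71 and 7.81 in serum+PD and 9.60 and 8.72 in serum alone. Its difference in serum+PD, 1.09, lost its call without the first 2i array (adjusted p = 0.133), the first serum+PD array (0.0559) or the second (0.0759). Smad7 (0.68), which is also counted in the Nodal group, lost its call without the first 2i array (0.168) or the second serum+PD array (0.107). Among 17 LIF and STAT3 genes, where LIF was the same in both media, 1 rose and 2 fell, against 5.45% and 7.06% of all genes. All 3 calls, Socs3 (0.59), Osmr (-1.0) and Jak1 (-0.38), were lost when single arrays were left out. Socs3 and Jak1 were lost without any one of the 4 (Socs3 0.0684 to 0.177, Jak1 0.101 to 0.13), and Osmr without the first 2i array (0.0829) or the second serum+PD array (0.0714).

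Among the 38 gene lists, which were chosen with earlier results of these data known, only cholesterol synthesis had every measured member called. All 20 measured genes fell, where 7.06% of all genes were called lower, with a median of -0.87. In each of the 20 both 2i arrays were above both serum+PD arrays, while 47.9% of all genes had no overlap in either direction. The smallest difference was that of Hmgcs1, which makes HMG-CoA, from 12.12 and 12.43 to 11.77 and 11.83 (-0.48, adjusted p = 0.000179). The largest was that of Dhcr7, which makes cholesterol in the last step of one branch, from 10.09 and 9.79 to 8.62 and 8.45 (-1.40, SE 0.15, adjusted p = 6.83e-06).

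Every stage of the pathway was among them. In the mevalonate stage Mvd fell by 0.96 on the log2 scale, Idi1 by 0.68 and Fdps by 0.80. In the squalene stage Fdft1 fell by 0.68 and Sqle, the epoxidase, from 10.53 and 10.69 to 9.97 and 9.99 (-0.63, adjusted p = 1.63e-05). In the sterol stage Cyp51 fell by 1.00, Msmo1 by 1.11, Nsdhl by 0.92 and Sc5d by 1.20. The regulators fell too: Srebf2, the transcription factor that drives the pathway, from 10.09 and 10.01 to 9.26 and 9.22 (-0.81, SE 0.07, adjusted p = 9.54e-07), and Insig1, which holds the SREBP complex in the endoplasmic reticulum, from 11.90 and 11.86 to 11.10 and 11.06 (-0.80, adjusted p = 7.19e-06).

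Further probe sets of Fdps (0.03) and Fdft1 (up to 0.24) lay above 0. With an array left out, 18 to 20 of the 20 were called, and 11 when only the 4 compared arrays were fitted. Pmvk (-0.57) was lost without the first 2i array (0.0644) or the first serum+PD array (0.0525), and Mvk (-0.51) without the second 2i array (0.0776) or the first serum+PD array (0.0586). In serum alone the same 20 were called lower against the same 2i arrays, where 19.4% of all genes were, with a median of -1.11. On the arrays labelled knockout 18 fell, where 6.59% of all genes did, with a median of -0.81. Fibroblast markers moved the same way as this group (means of 8.87 and 8.84 against 7.62 and 7.68), and their part in it was not tested.

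**Figure D4:**
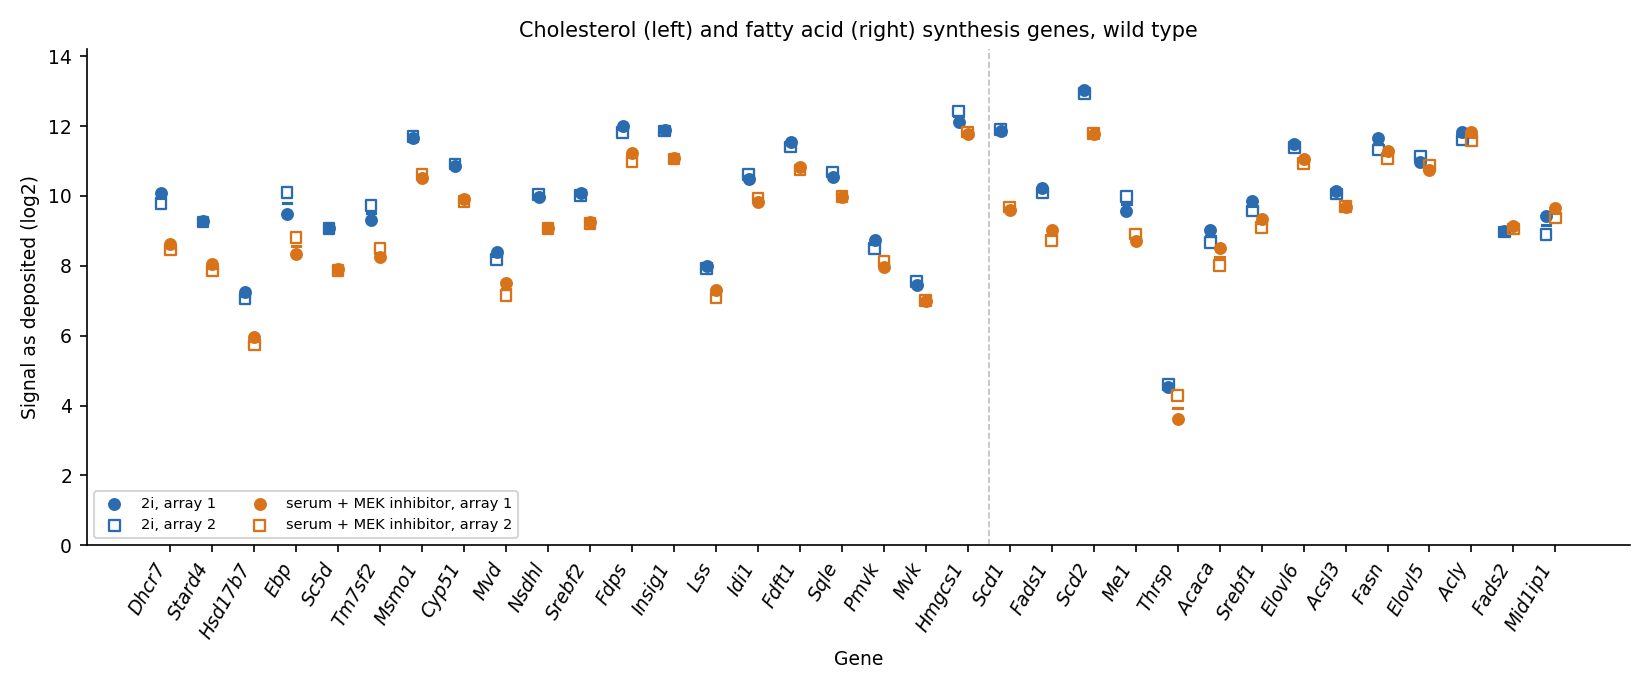
Log2 signal (vertical axis) of 20 cholesterol genes and 14 fatty acid genes (horizontal axis), each group ordered by difference. Wild-type arrays in 2i and in serum+PD are shown, 2 points per medium. For every cholesterol gene both 2i points lie above both serum+PD points, with gaps from 0.48 (Hmgcs1) to 1.40 (Dhcr7) between the means.

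SREBP factors act together with NF-Y, which binds CCAAT boxes. The promoters of Hmgcs1, Mvk and Hsd17b7 are printed as examples rich in CCAAT, with 3, 5 and 3 matches. Other genes of the list, such as Lss, had only 1. Capitals mark CCAAT or its reverse complement ATTGG, and in Hmgcs1 also the sterol element searched as TCACNCCAC. The windows, again 250 bases before the RefSeq start in GRCm38.p6, are chr13:119690101-119690350 (plus strand), chr5:114444019-114444268 (plus strand) and chr1:169969206-169969455 (minus strand).
Hmgcs1: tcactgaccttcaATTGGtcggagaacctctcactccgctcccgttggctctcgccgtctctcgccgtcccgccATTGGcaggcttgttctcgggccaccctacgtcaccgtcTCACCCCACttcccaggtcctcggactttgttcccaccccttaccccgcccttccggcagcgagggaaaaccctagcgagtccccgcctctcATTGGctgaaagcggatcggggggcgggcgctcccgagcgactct
Mvk: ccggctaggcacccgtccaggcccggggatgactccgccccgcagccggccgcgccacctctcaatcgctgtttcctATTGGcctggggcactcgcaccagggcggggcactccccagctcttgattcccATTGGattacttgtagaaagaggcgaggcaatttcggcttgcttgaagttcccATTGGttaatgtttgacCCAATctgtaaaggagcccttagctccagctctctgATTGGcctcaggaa
Hsd17b7: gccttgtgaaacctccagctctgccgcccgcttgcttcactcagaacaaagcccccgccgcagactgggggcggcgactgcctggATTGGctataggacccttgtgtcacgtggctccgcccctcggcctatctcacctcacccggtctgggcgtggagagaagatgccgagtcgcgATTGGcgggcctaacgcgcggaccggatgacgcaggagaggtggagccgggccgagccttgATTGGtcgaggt
CCAAT stood, on either strand, in all 16 cholesterol genes that had an entry, in 16 of their 19 windows (84.2%), against 33.8% of 32851 windows. Fatty acid genes held it in 6 of 11 and beta-catenin targets in 5 of 14, against 37.5% of 27025 genes. TCACNCCAC was present in 1.05% of windows and, among cholesterol genes with an entry, only in Hmgcs1, which says only that these letters are not in the other windows.

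Fatty acid genes fell in part: 9 of 14 were called lower, against 7.06% of all genes, and none higher, with a median of -0.46. Scd1, the desaturase that makes oleate, had the smallest p of them, from 11.86 and 11.90 to 9.60 and 9.68 (-2.24, SE 0.09, adjusted p = 6.83e-11), a 4.72-fold fall. Its relative Scd2 fell from 13.02 and 12.94 to 11.77 and 11.79 (-1.20, adjusted p = 2.4e-10), and Fads1, a polyunsaturated fatty acid desaturase, fell by 1.29 on the log2 scale (adjusted p = 1.38e-05). Malic enzyme Me1, a source of NADPH, fell by 0.96 (adjusted p = 5.18e-05). Fibroblast markers were lower beside this group as well (19 of 26 called lower), and their part in it was not tested.

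Fasn and Acaca, the enzymes of fatty acid synthesis itself, and Srebf1, a transcription factor of the pathway, gave calls that hung on single arrays. Fasn (-0.31), Acaca (-0.59) and Srebf1 (-0.49) were each lost without the first 2i array (adjusted p = 0.375, 0.184 and 0.215) or the second serum+PD array (0.258, 0.226 and 0.194). Of 8 LXR target genes for sterol export 3 were called lower, against 7.06% of all genes, with a median of -0.30. Lpcat3, a phospholipid acyltransferase, fell by 0.72 (adjusted p = 0.000825). Smpdl3a (-1.26) was lost without the first 2i array (0.0728) or the second serum+PD array (0.0639), and Pltp (-0.29) without either 2i array (0.124 and 0.115) or the second serum+PD array (0.262).

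Lysosomal genes were lower as well: 9 of 15 fell, against 7.06% of all genes, and none rose. All 15 differences lay below 0, and the median was -0.39. Lamp2, a membrane protein of the lysosome, read 11.58 and 11.72 in 2i and 10.64 on both serum+PD arrays (-1.01, adjusted p = 3.53e-05). Npc2, which carries cholesterol out of lysosomes, fell from 12.61 and 12.71 to 11.78 and 12.01 (-0.76, adjusted p = 9.31e-05). Hexa fell by 0.84. The cathepsins Ctsb (-0.98) and Ctsl (-0.30) fell too, each with a further probe set the other way (1.03 and 0.46). Neu1 (-0.82) lost its call without the first 2i array (0.106), and Grn (-0.39) without either 2i array (0.159 and 0.0872) or the second serum+PD array (0.35). Fibroblast markers moved with this group too, and their part was not tested.

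Genes of the amino acid response driven by ATF4 tended upward, with 9 of 26 called higher, 2 lower and a median of 0.18. Over all genes 5.45% were called higher and 7.06% lower. Stc2, a secreted glycoprotein, rose from 7.01 and 5.92 to 8.46 and 7.81, by 1.67 (adjusted p = 0.00156). Slc7a3, a cationic amino acid transporter, rose from 10.53 and 10.85 to 11.61 and 11.76, by 1.00 (adjusted p = 0.000624). The serine synthesis enzymes Phgdh (0.35, adjusted p = 0.00264) and Psph (0.59, adjusted p = 0.00116) rose by less. Psat1 (0.32) lost its call without the first 2i array (adjusted p = 0.0509), as did Slc7a5 (0.50, then 0.0522), and the number called higher was 4 without that array. Of the 2 lower calls, Atf3 (-0.68) was lost without the second 2i array (0.172) or the first serum+PD array (0.149), and Asns (-0.17) without any one of the 4 (0.0501 to 0.199).

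Selenium and redox genes moved both ways, 3 of 19 upward and 5 downward, against 5.45% and 7.06% of all genes. Selenow, a small selenoprotein, fell from 9.84 and 9.89 to 8.27 and 8.16 (-1.65, SE 0.09, adjusted p = 3.42e-09). Gpx1, a glutathione peroxidase that also carries selenocysteine, fell from 12.51 on both arrays to 11.57 and 11.72 (-0.86, adjusted p = 1.51e-06). Srxn1 fell by 1.00 (adjusted p = 0.00107). Slc40a1, the iron exporter ferroportin, read 5.10 and 4.65 against 7.51 and 5.58, and its difference (1.67) lost its call without the second 2i array (0.0531) or the first serum+PD array (0.0585). None of the 19 was called higher without that serum+PD array, and 3 were called lower without the first 2i array.

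Genes of energy metabolism moved both ways. Of 25 genes of oxidative phosphorylation 9 were called lower, against 7.06% of all genes, and none higher, with a median of -0.14. The largest of these was Ndufb8, a subunit of complex I, from 11.84 and 11.83 to 11.50 and 11.53 (-0.32, adjusted p = 0.000544), with 1 further probe set at 0.12. Uqcrfs1 of complex III fell by 0.30 (adjusted p = 0.00168). The number called lower was 5 without the first 2i array or the first serum+PD array, and 0 when only the 4 compared arrays were fitted. Among 26 genes of glycolysis and the hypoxia response 3 rose and 4 fell, against 5.45% and 7.06% of all genes. Pdk1, which inhibits pyruvate dehydrogenase, rose from 8.90 and 9.32 to 10.32 and 10.06 (1.08, adjusted p = 3.45e-05), while Hk1, a hexokinase, fell from 10.29 and 10.48 to 9.18 and 9.36 (-1.12, adjusted p = 0.000248). Aldoa fell by 0.47 (adjusted p = 3.18e-06). The number of this group called higher was 1 without the first 2i array and 6 without the second.

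Of 20 genes of G2 and mitosis 6 rose, against 5.45% of all genes, and none fell, with a median of 0.19. The part of the lower fibroblast markers (19 of 26 called lower, against 7.06% of all genes) in these rises was not tested. Cdc20, the activator of the anaphase-promoting complex, rose from 11.96 and 11.91 to 12.29 and 12.39 (0.40, adjusted p = 9.09e-05). Plk1 rose by 0.38 (adjusted p = 0.00132) and the motor Kif11 by 0.44 (adjusted p = 0.00117). The other 3, Ccnb2 (0.20), Bub1 (0.22) and Tpx2 (0.28), lost their calls without the first 2i array (0.0993, 0.221 and 0.168) or the second serum+PD array (0.161, 0.14 and 0.102). Ccnb2 and Bub1 lost theirs without either other array as well (0.0628 to 0.154). Bbc3, a p53 target that promotes apoptosis, rose from 8.04 and 7.73 to 9.02 and 9.06 (1.16, adjusted p = 1.94e-05). It was 1 of 2 called among 12 p53 response genes, against 12.5% called over all genes.

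Fibroblast genes were lower in serum+PD: 19 of 26 fell, against 7.06% of all genes, and none rose, with a median of -1.44. Fewer feeder cells and less RNA per feeder cell cannot be told apart in bulk RNA. The part of this fall in the rises of other groups was not tested. Postn, an extracellular matrix protein, read 9.78 and 9.97 in 2i and 6.94 and 6.89 in serum+PD (-2.96, adjusted p = 1.6e-06). Col1a1, a chain of type I collagen, read 9.81 and 9.58 against 8.03 and 8.23 (-1.56, adjusted p = 0.000111). Serum alone read lower still, with a Col1a1 of 4.20 and 4.30 and a summed marker level of 168.9 and 173.6. On the arrays labelled knockout the sum was 228.2 and 230.3 in 2i and 191.9 and 198.2 in serum+PD.

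Several other falls ran beside the fibroblast markers, and the markers' part in them was not tested. The counts in this paragraph stand against 5.45% of all genes called higher and 7.06% called lower. B2m, the light chain of MHC class I, fell from 11.71 and 11.86 to 9.62 and 9.74 (-2.10, adjusted p = 1.12e-06), and 3 of 13 interferon genes were called lower with none higher. Igf2, an imprinted growth factor, fell from 11.19 and 11.01 to 8.33 and 8.50 (-2.68, adjusted p = 2.47e-08), among 26 imprinted genes of which 4 rose and 3 fell (1 rose without the first 2i array and 2 without the second serum+PD array). Of 31 HOX genes 2 were called lower. Hoxc4 fell from 5.63 and 7.02 to 2.50 and 3.07 (-3.54, adjusted p = 0.000127), and Hoxc8 (-1.15) lost its call without any one of the 4 arrays (0.0783 to 0.257). Dpt, a matrix protein of fibroblasts, fell by 3.36 on the log2 scale (adjusted p = 4.59e-07).

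Lineage markers were called in small numbers, to be read against 12.5% of all genes. Of 13 neuroectoderm genes 2 rose and 1 was called lower. Tubb3, the neuronal beta-tubulin, rose from 6.75 and 6.62 to 8.74 and 8.93 (2.15, adjusted p = 1.87e-05), and it read 6.79 and 7.02 in serum alone. Pax6, a neural and eye homeobox factor, rose from 5.35 and 3.41 to 7.04 and 6.14 (2.21, adjusted p = 0.00197), with 1 further probe set at -0.84. Zic1 (-1.18) lost its call without any one array (0.0523 to 0.179). Short sets of 7 extraembryonic endoderm, 6 trophoblast and 4 mesoderm markers averaged between 3.25 and 4.83 on all 4 arrays. The longer lists counted next averaged 5.68 to 5.76 (endoderm), 5.32 to 5.55 (trophoblast) and 3.33 to 3.72 (mesoderm). Of 20 endoderm genes, Sox7 was called higher (2.12, lost without the first 2i array, 0.0572, or the second serum+PD array, 0.0819) and Pdgfra, which fibroblasts express too, fell by 1.42 (adjusted p = 0.000836). Of 14 trophoblast genes, Gata3 was called higher (1.64, lost without any one array, 0.0714 to 0.11) and Krt8 lower (-1.19, lost without the second 2i array, 0.177, or either serum+PD array, 0.0969 and 0.0714). Of 14 mesoderm genes only Cdx1, given above, was called.

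The largest rises outside these groups were led by Car4, a membrane carbonic anhydrase, which read 3.68 and 2.30 in 2i and 8.61 and 5.37 in serum+PD (4.00, adjusted p = 0.000932). Insm1, a zinc-finger factor of neuroendocrine cells, rose from 3.49 and 2.31 to 6.48 and 5.45 (3.06, adjusted p = 0.000109). Crmp1, a cytoskeletal protein of growing axons, rose from 6.27 and 5.23 to 9.04 and 8.12 (2.83, adjusted p = 6.95e-06). Others among the 20 largest rises were Dll1, a Notch ligand (2.58), Neurod1, a basic helix-loop-helix factor (2.48), Dpysl4, a relative of Crmp1 (2.46), and Slc1a3, a glutamate transporter (2.31). All of these were called under every left-out array, whereas Fgf5, Nnat, Ces1f, Tmem121b, Ctsj and Cfap161 were not (adjusted p up to 0.253, for Ctsj without the first 2i array). Ces1f was listed at 0 on both 2i arrays, so no fold is given. Among the 20 largest falls were Ppp1r14d, an inhibitor of protein phosphatase 1 (-3.57), Gpx6, a glutathione peroxidase (-3.22), and Trpm1, a cation channel (-2.61) with 1 further probe set at 0.34.

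The same change of medium was available on separate arrays, the pairs labelled knockout for Prdm14. There 2401 genes (13.2%) were called, 1202 higher (6.61%) and 1199 lower (6.59%). Of the genes called in wild type, 583 higher ones were also called higher there (58.8% of the wild-type list and 48.5% of the other), and 723 lower ones also lower (56.3% and 60.3%). Called genes in wild type had the same sign in 2175 of 2277 cases (95.5%), and 2 were called in opposite directions. The share of same signs over all genes was not counted. Markers of fibroblasts were called lower in wild type (19 of 26) and on the arrays labelled knockout (20 of 26). Their part in the shared calls was not tested. Otx2 read 3.40 and 7.66 in 2i and 9.72 and 9.92 in serum+PD on those arrays, Cdx1 6.94 and 6.91 against 3.28 and 3.95, and Scd1 11.64 and 11.60 against 9.18 and 9.48. In each case the arrays of both media did not overlap.

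**Figure D5:**
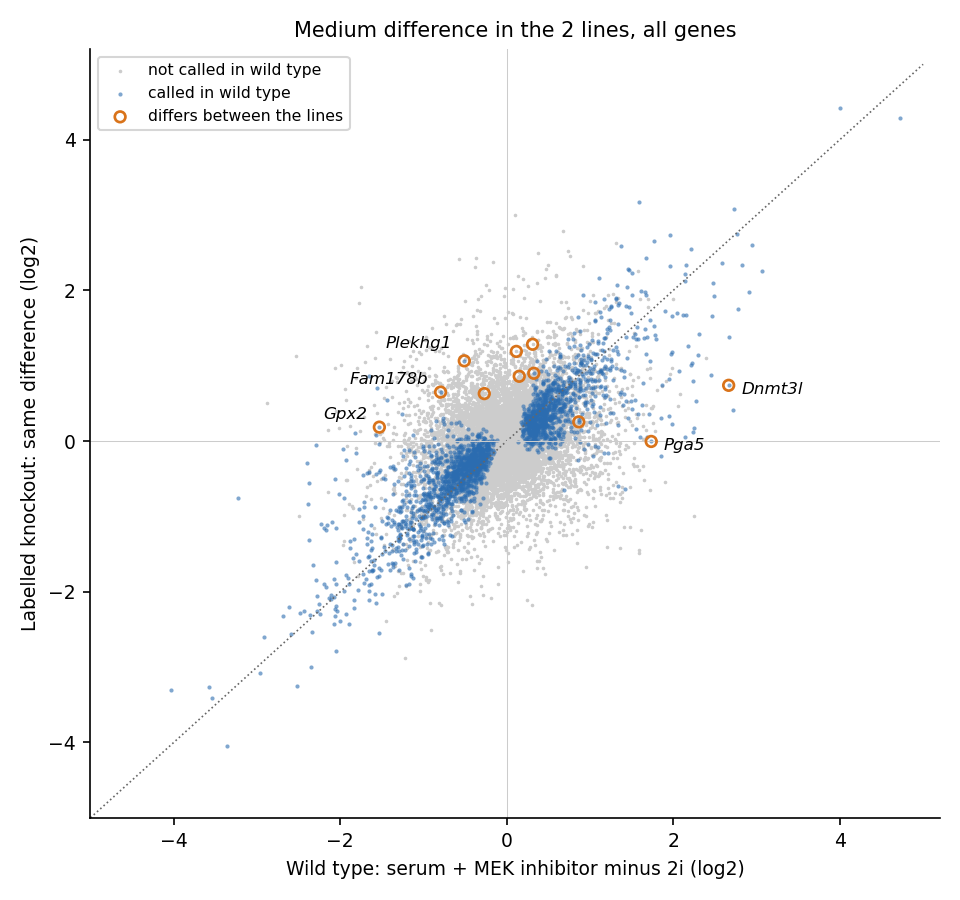
Difference of serum+PD minus 2i (log2) in wild-type cells (horizontal axis) against that on the arrays labelled knockout (vertical axis), 1 point per gene, with the 11 genes whose difference itself differed between the lines circled. Dnmt3l lies at 2.66 in wild type and 0.74 on the arrays labelled knockout.

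The medium difference itself differed between the lines for 11 genes (0.0605%), 8 (0.044%) with a more positive difference on the arrays labelled knockout and 3 (0.0165%) with a more negative one. Dnmt3l and Psat1, described above, were among them. On the arrays labelled knockout Dnmt3l read 11.15 and 10.98 already in 2i and 11.89 and 11.72 in serum+PD, a difference of 0.74 against 2.66 in wild type (difference of differences -1.92, SE 0.24, adjusted p = 0.00244). Plekhg1, which encodes a guanine nucleotide exchange factor, was called lower in wild type (-0.51) and higher on the arrays labelled knockout (1.06), with a difference of differences of 1.58 (adjusted p = 0.000482). Its lower call in wild type was lost without the first 2i array (0.0543) or the second serum+PD array (0.151). The number was 35 without the second 2i array labelled knockout, 23 without the second wild-type 2i array, 4 without the first serum+PD array labelled knockout and 6 without the second wild-type one. No gene passed in limma when only the arrays of the genotypes or of the groups compared were fitted (1019 and 821 genes had an unadjusted p under 0.05).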

How the data were processed

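The values are those the authors deposited: 1 log2 signal per probe set and array for 26 Affymetrix arrays, hybridised with biotin-labelled cRNA made by one-cycle amplification, per the labels' protocols. No source used here states the summary method or the log base; base 2 was inferred from the range of the values, and array medians were nearly equal. Names came from the platform annotation, which gave 1 symbol for 34944 of 45100 probe sets, several for 932 and none for 9160; 64 were controls. Of several probe sets for a gene (9010 of 18193 genes) the one with the highest mean over all 26 arrays was kept. Of 219 called members 130 had further probe sets, and 25 had one of opposite sign.

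limma 3.58.1 in R 4.3.3 fitted 1 coefficient per group over all 26 arrays (13 residual degrees of freedom, 18.05 after moderation with an intensity trend), two-sided, with Benjamini-Hochberg adjustment over all genes and calls at an adjusted p under 0.05. The arrays' number limits the precision. With an array left out, the remaining one is taken to vary like the other groups. Those fits had no block, and they leave the replicate numbers unbalanced between the media. Since same-numbered arrays deviated together, a call lost there cannot be laid to 1 array alone. Genes named are members of the gene lists, the 20 largest called rises and falls without overlap, the smallest p of the difference between lines, and Prdm14. The members and lists were chosen with earlier results of these data known. The fit was tested on simulated data made from this comparison. It called 35 of 67 genes changed 1.5-fold, 57 of 67 changed 2-fold and 66 of 66 changed 4-fold, and 8 unchanged genes. Changes were planted only in genes of middling level, and the noise was drawn independently for each array. Same-numbered real arrays deviated together and many real genes are dim, so these rates may not carry over. Promoter windows are from RefSeq tables of GRCm38.p6, which may not be the build behind the array annotation. Alternatives were the replicate number as a block, fewer arrays in the fit, no trend, quantile normalization, the mean of probe sets, dim genes (mean under 5) left out, and each compared array left out.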

Additional observations from a re-analysis of the deposited data

Results flagged for a closer look

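In limma with Benjamini-Hochberg adjustment over all genes, the difference of serum+PD minus 2i itself differed between the wild-type arrays and the arrays labelled knockout for 11 genes. The values below are the difference on the arrays labelled knockout minus that in wild type, on the log2 scale, with 2 arrays in each of the 4 groups.

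It was more negative on the arrays labelled knockout for 3 genes. Dnmt3l had -1.92 (adjusted p = 0.00244). Lgr4, an R-spondin receptor, had -0.61 (adjusted p = 0.0401), with 0.86 in wild type and 0.26 on the other arrays. Pga5, a pepsinogen, had -1.74 (adjusted p = 0.0401), with 1.74 in wild type.

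It was more positive for 8 genes. Plekhg1 had 1.58 (adjusted p = 0.000482) and Fam178b 1.44 (adjusted p = 0.00346), each called lower in wild type and higher on the arrays labelled knockout. Ddit4, a stress-induced inhibitor of mTORC1, had 0.90 (adjusted p = 0.0071), and Slain1, a microtubule-binding protein, 0.98 (adjusted p = 0.0127). Gpt2, a mitochondrial alanine transaminase, had 0.71 (adjusted p = 0.0134), and Psat1, the transaminase of serine synthesis, 0.57 (adjusted p = 0.0411). Pim1, a kinase induced by STAT3, had 1.08 (adjusted p = 0.0401), and Gpx2, a glutathione peroxidase, 1.72 (adjusted p = 0.0407), with -1.53 in wild type.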

How the results depend on the processing

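The number of wild-type genes called, 2277, was 876 with the arrays of the compared genotypes alone, 273 with the 4 compared arrays alone, and 1446 to 1687 with 1 array left out. Of the genes called in those fits 838, 262 and 1291 to 1418 were also called with all arrays, with the same sign. On the arrays labelled knockout 2401 became 472 with the compared arrays alone and 1452 to 1881 with 1 left out. For the difference between the lines 11 became 0 with the compared genotypes or groups alone (limma; 1019 and 821 genes had an unadjusted p under 0.05), 6 without the trend, likewise 6 when probe sets were averaged, and 4 to 35 with 1 array left out. No adjusted call there held in all fits. Quantile normalization gave 2301 wild-type calls (52.6% of them higher, against 43.6%), 2064 of them called before.

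With the replicate number as a block the counts were 3875, 3942 and 204; 2275 of the 2277 wild-type genes were among the 3875. Same-numbered arrays in 2i and serum+PD deviated together (correlation 0.649 over 11379 genes), but the labels do not say what the number marks, so this is a hint from the data. Of 76 list counts 50 stayed within 1.5 times their value under the block. Of the named genes the block added calls for Tbx3, Tfcp2l1, Lefty2 (adjusted p = 0.00229), Lgr5 (0.0238), Uhrf1 (0.0105), Tnfrsf19 (0.0493), Ddit4 (0.0328) and Slain1 (0.0426).

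Of the named genes, 1 called difference changed sign, that of Ctsl (0.08 with the mean of probe sets). The other sign changes were of genes that did not pass. With the mean of probe sets Dnmt1 became -0.01, Esrrb 0.14 and Etv4 0.15, and with quantile normalization Nanog became 0.04. With 1 array left out, the lowest and highest differences were Dnmt1 -0.04 to 0.07, Esrrb -0.10 to 0.02, Etv4 -0.28 to 0.12, Klf4 -0.34 to 0.09, Msgn1 -1.08 to 0.94, Nanog -0.04 to 0.04, Nodal -0.20 to 0.34 and Prdm14 -0.14 to 0.31.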
